A study of Saccharomyces cerevisiae with 6 samples.

Results

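Pseudouridines of the 3' region of yeast 25S ribosomal RNA were followed through 6 RiboMeth-seq samples. Pseudouridine is a uridine whose base is joined to the ribose through carbon instead of nitrogen. The members were the 19 positions from LSU-Psi2129 to LSU-Psi2975 that the deposited annotation of modified nucleotides lists as pseudouridine, out of 30 listed 25S pseudouridines and 111 listed modified rRNA positions. They were taken by position, without regard to any read count. LSU is the large ribosomal subunit, and positions count from the 5' end of the mature 25S rRNA, which has 3396 nucleotides. The gene lies on the minus strand of chromosome XII, from 460923 to 464318 as the annotation numbers it (the sources used here name no genome build), and the members fall between 461344 (Psi2975) and 462190 (Psi2129). All are exonic positions of a non-coding RNA.

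In yeast, box H/ACA small nucleolar RNAs (snoRNAs) base-pair with rRNA around the target uridine, and the enzyme Cbf5 in the same particle makes the pseudouridine. The modified nucleotides gather in the functional core of the ribosome: helix 69 of 25S reaches across to the small subunit next to the decoding site, and domain V holds the peptidyl transferase centre, where peptide bonds form. Known guides of the members are 14 snoRNAs, of which snR3 serves Psi2129, Psi2133 and Psi2264, and snR34, snR82 and snR191 serve a pair each. All 14 guide names were found in the R64 gene table.

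RiboMeth-seq breaks RNA by alkali and counts the first and last nucleotide of each sequenced fragment at the bond that was cut. Where the 2'-oxygen of the ribose carries a methyl group the bond is not cut, and read ends are lacking there. Pseudouridine has a free 2'-oxygen, and the assay has no step that marks it, so the values here describe read ends at known pseudouridines and measure no degree of modification. Read ends at a bond were divided by the weighted mean of the 6 neighbours on each side to give a relative level, and the score is 1 minus that level, with values below 0 set to 0. A score of 1 means no read ends and a score of 0 means as many as at the neighbours or more. RNA 3' ends (the fragment before the bond) and RNA 5' ends (the fragment after it) were scored apart and summed.

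The wild-type strain BY4741 gave gel-purified LSU rRNA, gel-purified small-subunit (SSU) rRNA, whose library also holds some 25S reads, and chromatin-associated RNA, prepared by a published protocol for nascent transcripts. Strain YWD680, here the knock-in, carries on a plasmid an artificial snoRNA directed at LSU-U2954, and was sampled as whole-cell RNA and as LSU rRNA purified on a gel. Strain YWD486, here the knock-out, carries on a plasmid the snR67-snR53 region with 1 base changed so that LSU-G2619 stays unmethylated, and gave whole-cell RNA. Each group is 1 sample, so no comparison below has a test, and intervals in brackets are 95% counting intervals, which cover counting error only. The knock-in whole-cell sample was deposited as 2 files, called runs here, and their sum.

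The 25S read ends numbered 1229170 in wild-type LSU rRNA, 1197181 in knock-in LSU rRNA, 734670 in knock-in whole-cell RNA, 214862 in knock-out RNA, 18489246 in chromatin-associated RNA and 70381 in the wild-type SSU library. With both ends summed, LSU-G2619 scored 0 in the knock-out and between 0.827 and 1 in the other 5 samples, the value of 1 resting on 0 read ends in the SSU library. LSU-U2954 scored 0.924 in knock-in LSU rRNA and 0.894 in knock-in whole-cell RNA, against at most 0.376 elsewhere.

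At most of the members RNA 3' ends were missing and RNA 5' ends were missing to a lesser degree. In wild-type LSU rRNA the median score over the 19 was 0.913 with 3' ends and 0.416 with 5' ends, and in knock-in LSU rRNA it was 0.913 and 0.473. The medians over unlisted 25S positions were 0.0842 and 0.0361 in wild-type LSU rRNA. The 3' score was above the 5' score at 18 of 19 members in wild-type LSU rRNA, Psi2260 being the exception, and at 18 of 19 in knock-in LSU rRNA, with Psi2865 as the exception. Among unlisted positions where either score reached 0.75, the 3' score was the higher one at 71.0% in the first library and 72.5% in the second. The median difference, 3' score minus 5' score, was 0.461 and 0.427 over the members. At the 37 annotated ribose methylation sites of 25S, where both kinds of end are lost, it was -0.00240 and -0.0219, and the 3' score was the higher one at 15 and 16 sites. The other 11 pseudouridines of 25S, all 5' of the members, had the higher 3' score at 11 of 11 in both libraries, so the pattern was not particular to the 3' region.

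A 3' score of at least 0.75 was reached by 17 of 19 members in wild-type LSU rRNA, against 7.00% of unlisted positions, and by 18 of 19 in knock-in LSU rRNA, against 5.13%. A 5' score of at least 0.75 was reached by 1 member in wild-type LSU rRNA (Psi2129; unlisted positions 2.92%) and by 2 in knock-in LSU rRNA (Psi2129 and Psi2865; unlisted positions 2.04%). The plot of scores by member shows the 3' and 5' values apart for the most part, with overlapping intervals in both libraries at Psi2191, Psi2260, Psi2826 and Psi2865.

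**Figure D1:**
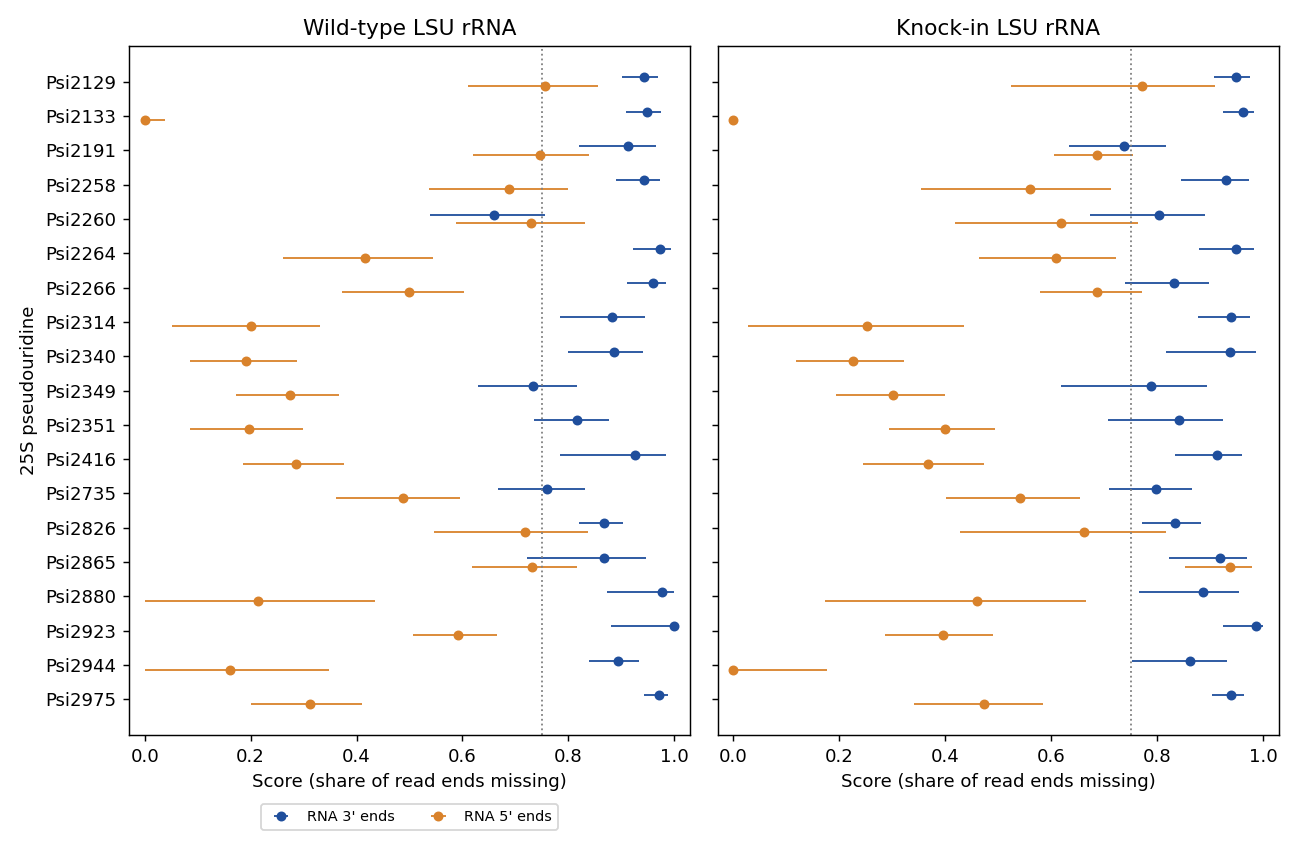
Score (share of read ends missing against the neighbours, no unit) of the 19 pseudouridines in wild-type LSU rRNA (left) and knock-in LSU rRNA (right). Points are scores from RNA 3' ends (blue) and RNA 5' ends (orange), bars are 95% counting intervals and the dotted line marks 0.75. The 3' scores reach 0.75 at 17 members on the left and 18 on the right, while the 5' scores spread from 0 to 0.755 and from 0 to 0.937.

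The loss of 3' ends was deepest at the single bond of the pseudouridine. In wild-type LSU rRNA the median relative level of 3' ends was 0.0872 at the pseudouridine, 0.745 at the position before it, 0.670 at the position after it and 1.63 at 2 positions after it, leaving out neighbours that are themselves listed as modified. The median level of 5' ends was 0.584 at the pseudouridine, 0.931 before it and 1.14 after it. In chromatin-associated RNA the 3' level was 0.299 at the pseudouridine and 1.45 at the position after it. The dip was thus at the same bond with both kinds of end, and shallower with 5' ends in wild-type LSU rRNA.

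**Figure D2:**
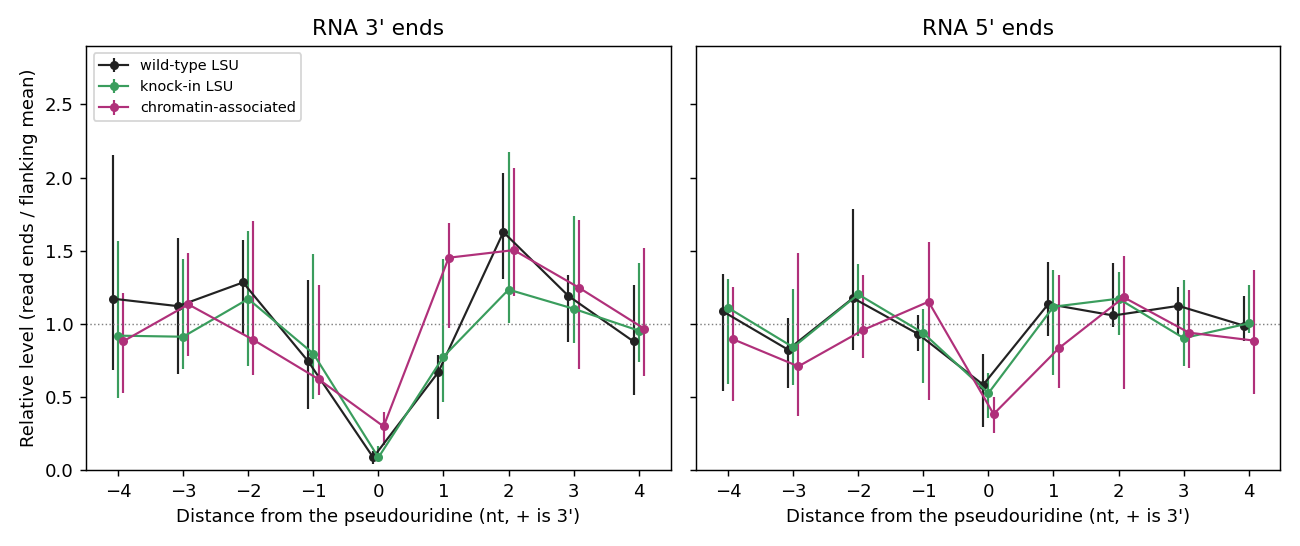
Median relative level (read ends over the flanking mean, no unit) against the distance from the pseudouridine in nucleotides, for RNA 3' ends (left) and RNA 5' ends (right). Points are medians over the members whose position at that distance is not itself listed as modified, and bars span the quartiles. The level at distance 0 is 0.0872 for 3' ends and 0.584 for 5' ends in wild-type LSU rRNA.

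Helix 69 holds Psi2258, Psi2260, Psi2264 and Psi2266, which lie within 6 nucleotides of at least 1 other modified position each and so stand partly in each other's flanks. Their median 3' score was 0.95 in wild-type LSU rRNA, 0.880 in knock-in LSU rRNA, 0.698 in knock-in whole-cell RNA, 0.670 in the knock-out and 0.670 in chromatin-associated RNA. Their median 5' scores in the same order were 0.593, 0.614, 0.544, 0.589 and 0.694, so the 5' medians of the helix varied less between samples than its 3' medians.

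Psi2258, which snR191 guides, had 9 RNA 3' ends and a 3' score of 0.942 (0.889 to 0.973) in wild-type LSU rRNA, 0.929 in knock-in LSU rRNA, 0.549 in knock-in whole-cell RNA, 0.897 in the knock-out and 0.582 in chromatin-associated RNA. Its 5' scores in that order were 0.688, 0.560, 0.603, 0.652 and 0.616. Among these samples the 3' ends were scarcest in gel-purified LSU rRNA and most frequent in knock-in whole-cell and chromatin-associated RNA. The knock-out value rests on 1 read end (0.415 to 0.997). The ribose methylation at 2256 is 2 nucleotides away. Psi2260, the other target of snR191, was the member with the lowest 3' score in wild-type LSU rRNA, 0.660 (0.538 to 0.756) from 42 read ends. It scored 0.803, 0.514, 0.389 and 0.549 in the other samples in the same order, and 0.729, 0.619, 0.747, 0.586 and 0.749 with 5' ends. In 4 of these 5 samples its 5' score was the higher one, knock-in LSU rRNA being the exception. The intervals were apart only in chromatin-associated RNA, with 0.490 to 0.603 for 3' ends and 0.729 to 0.768 for 5' ends. The knock-out 3' score of Psi2260 rests on 5 read ends (0 to 0.806) and a mean flanking count under 10.

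Psi2264, guided by snR3, had 3 RNA 3' ends against 74 RNA 5' ends in wild-type LSU rRNA. Its 3' scores were 0.973 (0.922 to 0.994), 0.948, 0.846, 0.634 and 0.823 in wild-type LSU, knock-in LSU, knock-in whole-cell, knock-out and chromatin-associated RNA. Its 5' scores were 0.416, 0.608, 0.367, 0 and 0.648 in that order, lowest in the knock-out with 20 read ends. Psi2266, guided by snR84, had 3' scores of 0.959 (0.911 to 0.985), 0.831, 0.878, 0.707 and 0.759 in the same order. Its 5' scores were 0.498, 0.686, 0.485, 0.593 and 0.740, and in chromatin-associated RNA the ends were thus missing nearly alike.

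The 6 members from Psi2826 to Psi2975 lie in domain V. Their median 3' score was 0.932 in wild-type LSU rRNA and 0.731 in chromatin-associated RNA, and their median 5' score was 0.452 and 0.608. Psi2923 sits in the A-loop, which holds the end of the aminoacyl-tRNA, beside the ribose methylation at 2922, and is guided by snR10, a snoRNA also needed for efficient pre-rRNA processing. It had 0 RNA 3' ends in wild-type LSU rRNA, 1 in knock-in LSU rRNA, 2 in knock-in whole-cell RNA, 0 in the knock-out and 806 in chromatin-associated RNA. The 3' scores were 1, 0.986, 0.988, 1 and 0.836, where the 3 counts that a count of 0 allows give 0.903 in wild-type LSU rRNA and 0.911 in the knock-out. It had the highest 3' score of the members in knock-in LSU and knock-in whole-cell RNA, on 1 and 2 read ends. Its intervals there, 0.924 to 0.9997 and 0.956 to 0.999, overlap those of other members, so these ranks are not established. In wild-type LSU rRNA its rank is not established either, since at 3 counts its score would lie below that of Psi2880, Psi2264 and Psi2975 among others. With 5' ends, 109 in wild-type LSU rRNA, the scores were 0.592, 0.395, 0.718, 0.642 and 0.647.

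Psi2880, guided by snR34, had 1 RNA 3' end and 44 RNA 5' ends in wild-type LSU rRNA. Its 3' scores were 0.977 (0.872 to 0.999), 0.887, 0.877, 0.692 and 0.761 in wild-type LSU, knock-in LSU, knock-in whole-cell, knock-out and chromatin-associated RNA, and its 5' scores 0.213, 0.460, 0.117, 0.286 and 0.551. Psi2826, the other target of snR34, stood apart from it with 5' ends scarce too. Its 3' scores were 0.867 (0.821 to 0.903), 0.834, 0.913, 1 and 0.650 in the same order, and its 5' scores 0.718, 0.662, 0.866, 0.670 and 0.887. The 1 in the knock-out rests on 0 read ends and becomes 0.795 at 3 counts. This pair thus shared a guide and, in wild-type LSU rRNA, had 5' scores whose intervals do not overlap.

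Psi2865, guided by snR46, was the member whose 5' ends were missing most in knock-in LSU rRNA. In the same order of samples its 5' scores were 0.731, 0.937, 0.551, 0.875 and 0.796, from 32, 5, 52, 5 and 1295 read ends, and its 3' scores 0.866 (0.723 to 0.946), 0.919, 0.844, 0.892 and 0.701. Psi2944, guided by snR37, lies near the position that the artificial snoRNA of the knock-in targets and 2 nucleotides from the ribose methylation at 2946. In that order its 3' scores were 0.893 (0.840 to 0.933), 0.862, 0.415, 0.940 and 0.562, and its 5' scores 0.162, 0, 0, 0 and 0.554. The low 3' score of knock-in whole-cell RNA came from 1 of the runs: it was 0 in run 1 and 0.850 in run 2. Psi2975, guided by snR42, had 3' scores of 0.971 (0.943 to 0.987), 0.939, 0.861, 0.922 and 0.842, which exceeded its 5' scores of 0.312, 0.473, 0.0379, 0.447 and 0.569 in all 5 samples.

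The other 9 members lie outside helix 69 and 5' of Psi2826. Psi2129 and Psi2133, both guided by snR3 and 4 nucleotides apart, had 3' scores of 0.942 (0.9 to 0.969) and 0.949 (0.909 to 0.975) in wild-type LSU rRNA. Their 5' scores were 0.755 and 0. At Psi2129 the 3' scores elsewhere were 0.948, 0.680, 0.807 and 0.898 and the 5' scores 0.771, 0.643, 0.902 and 0.952 in knock-in LSU, knock-in whole-cell, knock-out and chromatin-associated RNA. At Psi2133 they were 0.962, 0.804, 0.666 and 0.855 with 3' ends and 0, 0, 0.832 and 0 with 5' ends. The knock-out 5' scores of both members rest on 1 read end each. The knock-in whole-cell 5' score of Psi2129 was 0.857 in run 1, on 2 ends, and 0.378 in run 2, on 7. In 4 of 5 samples, the knock-out being the exception, these targets of 1 snoRNA differed with 5' ends. Such ends were scarce at Psi2129 and as frequent as at the neighbours, or more so, at Psi2133.

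Psi2191, guided by snR32 and 6 nucleotides from the ribose methylation at 2197, had 7 RNA 3' ends in wild-type LSU rRNA and 36 in knock-in LSU rRNA. Its 3' scores were 0.913 (0.820 to 0.965), 0.736, 0.603, 0.690 and 0.554, and its 5' scores 0.746, 0.686, 0.412, 0.292 and 0.654, in wild-type LSU, knock-in LSU, knock-in whole-cell, knock-out and chromatin-associated RNA. The wild-type LSU value was the highest of both rows of scores. Psi2314, guided by snR86, scored 0.883 (0.784 to 0.944), 0.940, 0.877, 1 and 0.821 with 3' ends and 0.201, 0.253, 0.572, 0.485 and 0.354 with 5' ends in the same order. Its 3' score reached 0.75 in all 5 samples, the knock-out value resting on 0 read ends (0.802 at 3 counts).

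Psi2340, guided by snR9, and the snR82 targets Psi2349 and Psi2351 lie beside the ribose methylations at 2337 and 2347. In the same order of samples Psi2340 scored 0.885 (0.799 to 0.941), 0.937, 0.860, 0.769 and 0.661 with 3' ends, and with 5' ends 0.191, 0.226, 0.0135, 0.340 and 0.0620. Psi2349 was among the 3 lowest in wild-type LSU rRNA with 35 RNA 3' ends. Its 3' scores were 0.734 (0.628 to 0.815), 0.788, 0.776, 0.815 and 0.667, and its 5' scores 0.275, 0.302, 0.229, 0.410 and 0.449. Psi2351 had 3' scores of 0.816 (0.734 to 0.877), 0.841, 0.729, 0.784 and 0.619 and 5' scores of 0.197, 0.400, 0.0913, 0 and 0.419. At each of the 3 the 3' score was above the 5' score in all 5 samples.

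Psi2416, guided by snR11, adjoins the ribose methylation at 2417 and had 3 RNA 3' ends against 235 RNA 5' ends in wild-type LSU rRNA. Its 3' scores stayed between 0.851 in chromatin-associated RNA and 0.932 in knock-in whole-cell RNA, with 0.926 (0.784 to 0.985), 0.913 and 0.916 in wild-type LSU, knock-in LSU and knock-out RNA. Its 5' scores ran from 0.179 in the knock-out through 0.286, 0.367 and 0.575 to 0.707 in knock-in whole-cell RNA. Psi2735, guided by snR189, was the third lowest in wild-type LSU rRNA and had the lowest 3' score of all members in chromatin-associated RNA. It scored 0.759 (0.667 to 0.831), 0.798, 0.783, 0.525 and 0.156 with 3' ends and 0.488, 0.541, 0.678, 0.627 and 0.765 with 5' ends. In chromatin-associated RNA this bond thus had 2837 RNA 3' ends, close to its neighbours, and still lacked 5' ends.

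A ribose methylation within 6 nucleotides was listed for 10 members, and so lay in their flanks. Their median 3' score was 0.889 in wild-type LSU rRNA and 0.600 in chromatin-associated RNA, against 0.949 and 0.821 for the 9 members with none. The cause of this difference was not tested. With listed modified neighbours left out of the flanks, the median 3' score over all 19 was 0.917 in wild-type LSU rRNA, where 19 of 19 then reached 0.75, and 0.701 in chromatin-associated RNA.

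Across samples, gel-purified LSU rRNA gave the highest median 3' scores. This did not hold at each member. Leaving out the SSU library, Psi2314, Psi2349, Psi2826 and Psi2944 had their highest 3' score in the knock-out. Psi2416 had its highest in knock-in whole-cell RNA. The median 3' score was 0.844 in knock-in whole-cell RNA, 0.807 in the knock-out and 0.701 in chromatin-associated RNA, while the median 5' score was 0.485, 0.485 and 0.616. In the whole-cell and chromatin-associated samples a 3' score of at least 0.75 was reached by 13, 12 and 9 of 19 members, against 4.22%, 3.12% and 4.53% of unlisted positions. The knock-out had a mean flanking count of at least 10 at 16 members, of which 10 reached 0.75. In chromatin-associated RNA 4 members reached a 5' score of 0.75 (Psi2129, Psi2735, Psi2826 and Psi2865), against 7.29% of unlisted positions. The 3' score was above the 5' score at 17 members in knock-in whole-cell RNA, at 15 in the knock-out and at 12 in chromatin-associated RNA. Among unlisted positions with enough flanking ends where either score reached 0.75, the shares were 46.9%, 32.1% and 37.0%. The members were not limited in this way. The 7 members that did not follow in chromatin-associated RNA were Psi2129, Psi2191, Psi2258, Psi2260, Psi2735, Psi2826 and Psi2865. The 3' and 5' medians were closest in chromatin-associated RNA, as the plot of scores by sample shows.

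**Figure D3:**
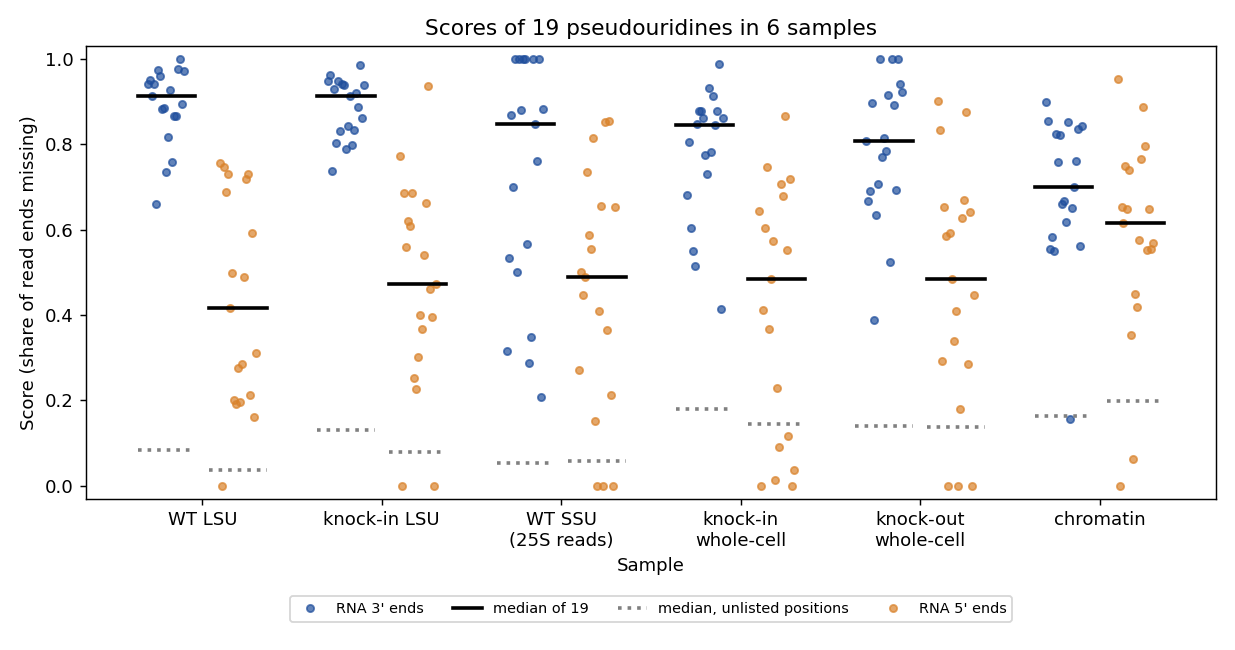
Score (share of read ends missing, no unit) of the 19 pseudouridines in each of the 6 samples, from RNA 3' ends (blue) and RNA 5' ends (orange). Black lines are medians of the 19 and dotted lines medians of unlisted 25S positions. The 3' median falls from 0.913 in both LSU samples to 0.701 in chromatin-associated RNA, where the 5' median is 0.616, the highest of the 6.

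The knock-in and wild-type LSU samples were compared by the relative level of summed ends, a fold being the ratio of 2 relative levels. A 2-fold difference was met by 1 of 19 members, against 3.63% of unlisted positions that were higher in the knock-in and 2.51% that were lower. The member was Psi2865, whose level was 0.228 from 39 read ends in wild-type and 0.0720 from 11 in knock-in LSU rRNA, a fold of 0.316 (0.147 to 0.622). With 3' ends alone 4 of the 18 members with a fold were higher in the knock-in and 0 lower, against 11.2% and 10.4% of unlisted positions. They were Psi2191 with 3.02-fold (1.34 to 7.99), Psi2266 with 4.11-fold (1.63 to 12.3), Psi2880 with 4.94-fold (0.703 to 210, 1 count in the wild type) and Psi2975 with 2.1-fold (0.9 to 5.45). The intervals of Psi2880 and Psi2975 include 1. Ribose methylation sites moved between these samples as well: 31 of 37 were at least 2-fold higher in knock-in LSU rRNA with summed ends, with a median fold of 3.42, against 0.880 for the members. The headers of the knock-in LSU data describe a read filter of their own, and its part in these differences was not tested.

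The whole-cell samples of the knock-out and the knock-in differed 2-fold with summed ends at 3 of 19 members, 2 higher and 1 lower in the knock-out, against 5.44% and 4.53% of unlisted positions. Psi2416 had a level of 0.505 in the knock-out and 0.184 in the knock-in, 2.74-fold (1.34 to 5.37). Psi2923 had 0.192 and 0.0939, 2.05-fold (0.980 to 4.14), an interval that includes 1. Psi2865 had 0.122 and 0.351, 0.347-fold (0.123 to 0.795). With 3' ends alone 4 of 13 members were higher (Psi2264, Psi2266, Psi2735 and Psi2880) and 1, Psi2944, was lower, against 9.18% and 7.75% of unlisted positions. The folds were 2.38 (0.826 to 6.20) at Psi2264, 2.39 (0.865 to 6.23) at Psi2266 and 2.50 (0.787 to 7.04) at Psi2880, with intervals that include 1, and 2.19 (1.04 to 4.28) at Psi2735. Psi2944 had 0.102 (0.00253 to 0.602) on 1 knock-out count, and its 3' level in the knock-in was 1.02 in run 1 and 0.150 in run 2, against 0.0597 in the knock-out. No member has LSU-G2619 in its flanks.

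The 2 runs of the knock-in whole-cell sample were the only repeat, and more members were past 2-fold between them than between the strains. With summed ends 6 members were 2-fold higher and 7 lower in run 2 than in run 1, against 12.6% and 19.1% of unlisted positions. The level at Psi2264 was 0.745 in run 1 and 0.111 in run 2, at Psi2314 it was 0.586 and 0.0901, and at Psi2865 0.129 and 0.475. The folds at Psi2416 and Psi2865 between the strains were no larger than those between 2 files of 1 sample. Between the runs Psi2416 differed 4.15-fold (1.07 to 35.6), on 2 counts in run 1, and Psi2865 3.69-fold (1.75 to 8.95). The knock-out level still lay outside both runs at each member. It was 0.505 against 0.0543 and 0.226 at Psi2416, and 0.122 against 0.129 and 0.475 at Psi2865. The part of the strain was not tested. The median 3' scores of the runs were 0.812 and 0.850, and the median 5' scores 0.356 and 0.465.

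Chromatin-associated RNA, which is enriched in RNA still attached to its template, was set against mature wild-type LSU rRNA of the same strain. With 3' ends the relative level was higher in chromatin-associated RNA at 19 of 19 members, with a median fold of 2.86, and at least 2-fold higher at 14 and 2-fold lower at 0, against 17.5% and 18.5% of unlisted positions, whose median fold was 0.941. With 5' ends 0 members were 2-fold higher and 3 were lower (Psi2129, Psi2735 and Psi2826), against 11.1% and 20.4% of unlisted positions, and the median fold was 0.724, against 0.847. With summed ends 2 members were 2-fold higher (Psi2191 and Psi2258) and 2 lower (Psi2314 and Psi2416), against 8.67% and 13.7% of unlisted positions. Ribose sites were higher with both kinds of end, 31 of 37 being 2-fold higher with 3' ends and 31 of 37 with 5' ends. Their median folds were 3.82 and 5.15. Of the other 11 pseudouridines of LSU rRNA, 9 were 2-fold higher and 1 lower with 3' ends, with a median fold of 2.98. Their 5' ends were 2-fold higher at 0 positions and lower at 5, with a median fold of 0.684. The difference was thus not particular to the members.

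With 3' ends the fold in chromatin-associated RNA was 7.19 (3.73 to 15.9) at Psi2258, 6.60 (2.24 to 32.2) at Psi2264 and 5.88 (2.69 to 16.1) at Psi2266, and 1.33 (0.952 to 1.89) at Psi2260, the fourth member of helix 69. In domain V it was 5.41 (2.73 to 12.6) at Psi2975, 4.11 (2.71 to 6.54) at Psi2944, 2.62 (1.93 to 3.65) at Psi2826 and 2.24 (1.07 to 5.62) at Psi2865. Psi2880 had 10.5 (1.87 to 415), a ratio that rests on 1 count, and Psi2923, with 0 counts in the wild type, was at least 1.69-fold higher at 3 counts for the library. Psi2735 had a level of 0.241 in the wild type and 0.844 in chromatin-associated RNA, 3.51-fold (2.53 to 5.01), while its levels of 5' ends were 0.512 and 0.235, 0.460-fold (0.365 to 0.586). Psi2191 reached 5.11 (2.47 to 12.8), and Psi2351, Psi2133 and Psi2340 lay between 2.07 and 2.95. Psi2416 had 2.03 (0.686 to 9.91) on 3 wild-type counts, so that this call has an interval that includes 1. The folds of Psi2129, Psi2314 and Psi2349 were 1.75, 1.53 and 1.25, with intervals that also include 1.

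This count changed with the reference. Against knock-in LSU rRNA 14 members were 2-fold higher with 3' ends and 0 lower. Against knock-in whole-cell RNA 5 were higher and 1 lower, and against the knock-out 2 were higher and 2 lower. The count was thus the same against the gel-purified LSU samples and lower against the whole-cell samples. In the knock-out only 16 members had enough flanking 3' ends. Shares of unlisted positions were not computed for these other references, so their counts have no background beside them. The third gel-purified sample, the SSU library, was not used as a reference, since only 2 members had enough flanking 3' ends in it. Median 3' levels were 0.0872 and 0.0874 in the gel-purified LSU samples, 0.154 in the SSU library, 0.156 and 0.193 in the whole-cell samples and 0.299 in chromatin-associated RNA, with strain, RNA preparation and depth differing between them. The SSU median rests on few reads, with quartiles of 0 and 0.482 over the members, so the place of this library among the samples is not established. Chromatin-associated and wild-type LSU RNA came from the same strain, as did knock-in whole-cell and knock-in LSU RNA. Within these pairs preparation and depth differed together and cannot be told apart. Over all samples together the parts of strain, preparation and depth cannot be told apart. A lower share of modified molecules was not measured.

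**Figure D4:**
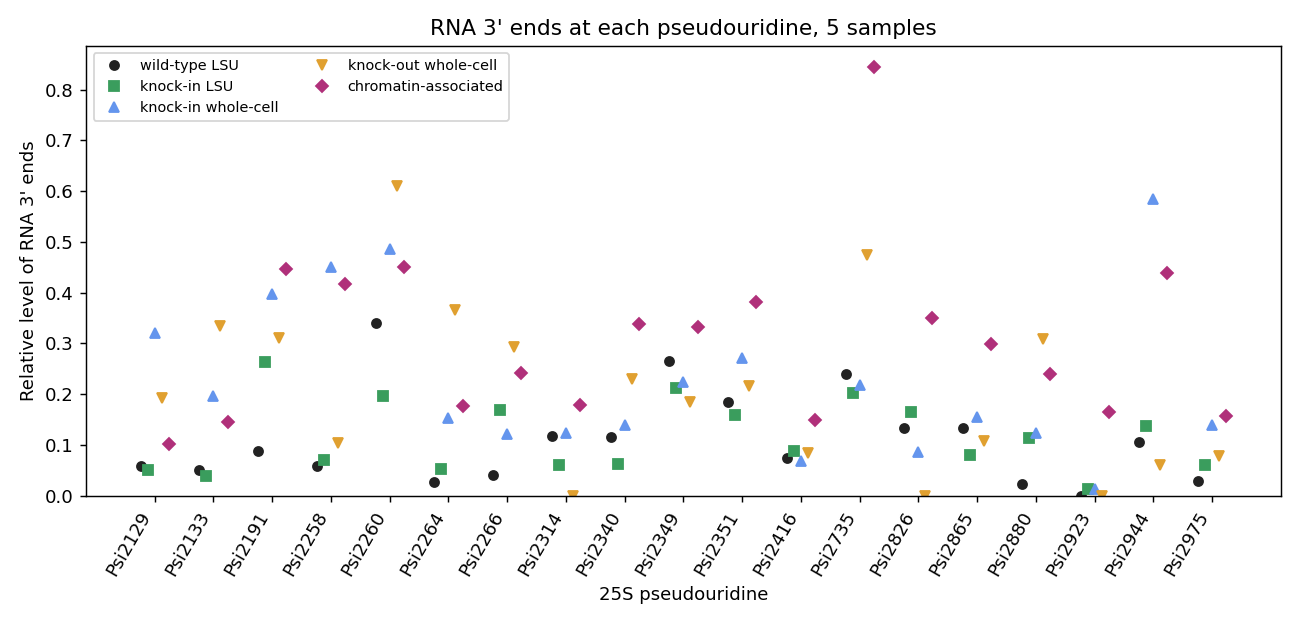
Relative level of RNA 3' ends (read ends over the flanking mean, no unit) at each of the 19 pseudouridines in 5 samples. Chromatin-associated RNA (diamonds) lies above wild-type LSU rRNA (circles) at 19 of 19 members, and the whole-cell samples (triangles) lie on both sides of it. The highest value is 0.844, at Psi2735 in chromatin-associated RNA.

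The wild-type SSU library gives a shallow second view of 25S in the wild type, with 35590 3' ends and 34791 5' ends. With ends apart only 2 members (3' ends) and 4 members (5' ends) had a mean flanking count of at least 10, so its 3' scores of 11 members at 0.75 or more, 1 of them among these 2, rest on few reads (unlisted positions 1.49%). The 3' score was above the 5' score at 16 of all 19 members, whatever their flanks. The share was 34.1% over the 41 unlisted positions with enough flanking ends where either score reached 0.75, which is an unlike set. With summed ends 6 members were 2-fold higher than in the LSU library and 3 lower, against 5.14% and 5.39% of unlisted positions. Psi2129 showed the highest fold, 6.72 (2.65 to 15.1), on 8 read ends, followed by Psi2258 (3.09), Psi2944 (3.01), Psi2735 (2.27), Psi2191 (2.09) and Psi2865 (2.00). Lower folds were 0.252 at Psi2314, 0.438 at Psi2880 and 0.479 at Psi2826, from 2, 3 and 1 read ends. The intervals of Psi2258 (0.941 to 7.99), Psi2865 (0.806 to 4.36), Psi2880 (0.0870 to 1.36) and Psi2826 (0.0119 to 2.76) include 1. The summed-end score in that library was 0.821 at Psi2260, 0.555 at Psi2264, 0.743 at Psi2266, 0.480 at Psi2340, 0.207 at Psi2349, 0.473 at Psi2351, 0.510 at Psi2416 and 0.656 at Psi2923, and the median over the 19 was 0.552.

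The order of the members was more alike between samples with 5' ends than with 3' ends. Spearman's rank correlation of the scores over the 19 was 0.893 with 5' ends and 0.611 with 3' ends between the gel-purified LSU samples, and 0.891 and 0.642 between wild-type LSU and chromatin-associated RNA. These describe 19 bonds that share libraries and sequence and carry no test. Between the runs of the knock-in whole-cell sample the values were 0.238 with 5' ends and 0.638 with 3' ends. In wild-type LSU rRNA the 3' scores lie close together, and neighbours in their order from Psi2923 down to Psi2191 have overlapping intervals.

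A pseudouridine score made by the authors was deposited beside the counts. In the authors' deposited tracks its median over the 19 members was 6.74 in wild-type LSU rRNA, against a 99th percentile of 5.65 over unlisted positions, and 11 of 19 members lay above that percentile. Ribose methylation sites passed it too, at 32 of 37. In the authors' deposited tracks the members above the same percentile of their own sample numbered 7 in the wild-type SSU library, 6 in the knock-out, 2 in knock-in whole-cell RNA and 1 in chromatin-associated RNA. In knock-in LSU rRNA the deposited track held another quantity, equal within 0.001 to 1 minus the summed-end level at 19 of 19 members, and 9 lay above its percentile. The highest values of the authors' deposited track among the members in wild-type LSU rRNA were 10.2 at Psi2129 and 10.1 at Psi2923, and the lowest was 1.80 at Psi2260.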

How the data were processed

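Per the labels' protocols, RNA was extracted with hot phenol, degraded under denaturing conditions to pieces 20 to 40 nucleotides long, cloned with a tRNA ligase without kinase activity and sequenced on an Ion semiconductor instrument. The submitters' processing notes name cutadapt 1.2 and Bowtie2 2.1.0. Each of the 8 sample files holds, in 1 column, read-end count tracks that the authors deposited without normalization and score tracks that the authors computed per the file headers, of which the pseudouridine score was described here. Because counts and scores share that column, no count model was used. The headers of the knock-in LSU data state that the first 3 nucleotides of a read were free of errors, a filter the other headers do not mention.

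Levels, scores, intervals and folds were computed from the read-end counts with Python 3.11.15, numpy 2.4.6 and scipy 1.17.1, figures were drawn with matplotlib 3.10.9, and the code was tested on simulated data. Flanks took in 6 positions a side, the nearest with weight 1 and each further one with 0.1 less, to 0.5. Intervals at 95% come from beta quantiles of the count at the bond against the effective flanking count. Reads were counted without molecular identifiers, so intervals cover counting error only. A fold was called at 2 with a mean flanking count of at least 10 in both samples, and a count of 0 was set to 3 counts, giving a bound. A bound that pointed away from the side with the 0, or a 0 against at most 3 counts, gave no fold. The background is the 3321 25S positions that the annotation does not list, as far as their counts allowed. No reference sequence was at hand, so it was not matched on the base.

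Groups come from the labels. With 1 sample per group there are no p-values, and differences include any between cultures and preparations. All 19 members are named, with values by sample for the 3 highest and 3 lowest by 3' score in wild-type LSU rRNA, helix 69, members past 2-fold and members within 6 nucleotides of a ribose methylation. The members, lists, guide names and settings were chosen with earlier results of these data known, and guide names and roles are general knowledge. Guides were matched by symbol in the R64 table of RefSeq, which served for names only.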

Additional observations from a re-analysis of the deposited data

How the results depend on the processing

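Of 62 alternative values, 42 stayed within 1.5 times the count or 1 SD of the run pair (0.0265 for 3' medians, 0.0774 for 5' medians), and 20 moved further. Totals of members past 2-fold were compared without regard to direction, which changed in some that stayed within this range. With 5' ends alone, 2 higher and 1 lower in the knock-out against knock-in whole-cell RNA became 1 and 2. In chromatin-associated against wild-type LSU rRNA, 2 higher and 2 lower became 0 and 3. With 2 unweighted flanking positions a side the median 3' score was 0.875 instead of 0.913 in wild-type LSU rRNA and 0.652 instead of 0.701 in chromatin-associated RNA, where the median 5' score was 0.435 instead of 0.616. Leaving listed modified positions out of the flanks gave a median 5' score of 0.503 instead of 0.416 in wild-type LSU rRNA. The 9 members at a 3' score of 0.75 in chromatin-associated RNA became 5 with the flanking median and 18 at a limit of 0.5.

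Between knock-in and wild-type LSU rRNA the 1 member past 2-fold became 3 with 2 flanking positions, 7 at a fold of 1.5, 4 with 3' ends and 2 with 5' ends. Between knock-out and knock-in whole-cell RNA the 3 members became 5 with 2 flanking positions, 8 at a fold of 1.5, 5 with 3' ends and 8 against run 2 alone. Between chromatin-associated and wild-type LSU rRNA the 4 members became 7 at a fold of 1.5, 14 with 3' ends, 2 against knock-in LSU rRNA and 1 against the knock-out. The 14 members higher with 3' ends became 5 against knock-in whole-cell RNA and 2 against the knock-out. No share of unlisted positions was computed for the other references. The causes of these changes were not tested. The last 2 references with summed ends, and all alternatives of the 3' count, were chosen after seeing the data.

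No sample could be left out, and no paired analysis was possible because each group has 1 sample. Depth limits the knock-out and the SSU library most: at 3 members of the first and 17 of the second the flanks averaged under 10 3' ends, and scores of 1 there rest on 0 read ends.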

Other observations

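A loss of 3' ends with a smaller loss of 5' ends, or none, as at several of the pseudouridines, was also found at positions that the annotation does not list. A 3' score of at least 0.9 with a 5' score of at most 0.5 in both gel-purified LSU samples was met by 3 of the 19 members (Psi2133, Psi2416 and Psi2975) and by 11 of 3271 unlisted positions with enough flanking ends. The 11, chosen by their values, were 25S positions 333, 476, 696, 730, 1365, 1399, 1424, 1578, 1579, 2652 and 2709. At position 2709 the 3' score was 0.989 in wild-type LSU rRNA, 1 in knock-in LSU rRNA and 0.931 in chromatin-associated RNA, with 5' scores of 0, 0.0198 and 0.352. At position 1399 the 3' scores were 0.938, 0.970 and 0.985 and the 5' scores 0, 0 and 0.269 in the same order. The base at these positions was not looked up here.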
